A study of Mus musculus with 8 samples.

Results

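H3K9me3 was compared between the libraries of *T* = 4d and *T* = 6d that were made with the Upstate-type antibody, which are 2 of the 8 ChIP-seq libraries of the series. Their tags were counted by the midpoint of each tag in 5-kb windows of chromosomes 1 to 19 (mm9), and the question was where the loss of the mark continued, where it had stopped and where it turned. Time was counted from the moment at which *Setdb1 tm1c/tm2* ES cells received 0.8 μM 4′OHT for 48 h. At *T* = 4d and *T* = 6d the cells were therefore in culture without the drug. The drug activates the CreERT2 recombinase expressed from *Rosa26*, which turns the conditional *tm1c* allele into the null *tm1d* allele, and the *tm2* allele is inactive in all libraries (these are the names of the paper, whereas the labels call the untreated cells *tm1a/tm2* and the treated cells *tm1c/tm2*). The cells are a clonal derivative of JM8, a C57BL/6N line grown with LIF and without feeders. The other libraries, used here only to choose windows or to be set beside the result, were *T* = 0 (untreated) and *T* = 2d (end of treatment) of the Upstate-type antibody, and *T* = 0 and *T* = 6d of lots 58206 and 638466 of the Abcam antibody. No library of *tm1c*/+ control cells was analysed here, so that time in culture and loss of Setdb1 cannot be told apart. Setdb1 itself is not measured by these libraries, and the labels were therefore not checked against it. There is 1 library per time point and antibody, and a test on tags compares these libraries, with counting error only, and not the conditions.

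Setdb1 is a histone methyltransferase that places 3 methyl groups on lysine 9 of histone H3. The mark is bound by heterochromatin proteins and is known in ES cells for silencing endogenous retroviruses, imprinted alleles and lineage genes. Other enzymes of the Suv39h type place the same mark over pericentric heterochromatin and long silent domains. When the enzyme is lost, a mark on existing nucleosomes is lowered by dilution at replication and by demethylases, so levels can continue to change for days after the gene has been deleted.

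Each library of the Upstate-type antibody held 6887819 tags, and the median window held 10 tags at *T* = 4d and 9 at *T* = 6d. The share of tags in windows that reached 3 times the median of the same library was 38.5, 45.7, 35.4 and 37.6% at *T* = 0, 2d, 4d and 6d. This share was lowest at *T* = 4d, where the median, a whole number, and with it the limit were highest. A fixed set of windows gave the other order for the compared libraries. The 45331 windows at 3 or more times the pooled median of *T* = 0 and *T* = 2d held 2498742 tags at *T* = 4d and 2371623 at *T* = 6d. The part of these differences in the results was not tested. Scaling to the tags of background windows in place of all tags was done for 19 values and moved none of them beyond its interval or, for counts, 1.5 times. Background windows were those under 1.5 times the pooled *T* = 0 median of both Abcam lots. They include windows with many Upstate-type tags: at 0.5 to 1 times that median, 13348 windows held at least 40 tags at *T* = 4d and *T* = 6d together. The scaling therefore cannot show whether the concentration of tags played a part.

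Windows were tested where they held at least 40 tags in the *T* = 4d and *T* = 6d libraries together, which was true of 59104 of 494473 windows. A window was called lower or higher by Fisher's exact test (two-sided, *P* below 0.01) with a change over 1.5-fold. By this requirement 2093 windows (3.54%) were lower at *T* = 6d than at *T* = 4d and 2489 (4.21%) were higher, where counting error alone would call 0.337% in each direction. With a Benjamini-Hochberg adjusted *P* below 0.05 in place of the unadjusted one, 1291 windows (2.18%) were lower and 1398 (2.37%) were higher. The chi-square of a tested window averaged 2.41, against 1 for counting error. In the earlier steps of the time course, counted in the same way, the step from *T* = 0 to *T* = 2d had 1283 lower (2.06%) and 3145 higher windows (5.05%), and the step from there to *T* = 4d had 2897 lower (5.08%) and 761 higher windows (1.33%). The last step thus had similar numbers of calls in both directions. Both libraries hold the same number of tags, so counts are relative. A fall in some windows leaves more tags for others, and a change of the whole level cannot be seen. Which direction led depended on the windows: 2-kb windows gave 1507 lower and 752 higher, and a minimum of 80 summed tags gave 1296 lower and 962 higher.

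Among all windows, lower calls lay where the antibody had bound most and higher calls where it had bound less. Windows were grouped by the pooled *T* = 0 and *T* = 2d tags of the Upstate-type antibody, with a median of 18, so that neither compared library set the groups. In the 393 windows at 20 or more times this median, the summed tags went from 79566 at *T* = 4d to 63565 at *T* = 6d, with a ratio of 0.799 (95% exact binomial interval 0.791 to 0.807). The ratio was 0.873 (0.870 to 0.876) in windows at 10 to 20 times the median and 0.967 (0.964 to 0.969) at 5 to 10 times. Below that the ratios lay above 1, with 1.03 at 3 to 5 times, 1.05 at 2 to 3 times and 1.02 in windows under 0.5 times the median. With equal totals these ratios are relative, and how far they follow from the fall in the strong groups was not tested. The means at *T* = 0, 2d, 4d and 6d were 199, 245, 202 and 162 tags in the most enriched group. They were 105, 127, 109 and 95.1 at 10 to 20 times and 58.4, 67.1, 58.8 and 56.9 at 5 to 10 times. The first and second of these means are raised by the choice. Even so, none of these groups was under its untreated mean at *T* = 4d, so the last step there did not extend a net loss from *T* = 0. The share of tested windows called lower was 13.2% in the most enriched group and 1.28% at 1 to 2 times the median, and the share called higher was 0.509% and 9.71% in the same groups. The tags of the strongest and the weakest Upstate-type windows were therefore closer to each other at *T* = 6d than at *T* = 4d. In the low groups few windows reached 40 summed tags (7272 of 186054 at 1 to 2 times the median), and those that did had to be high at *T* = 4d or *T* = 6d, so that the summed ratios, which take in all windows, carry the comparison.

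**Figure D1:**
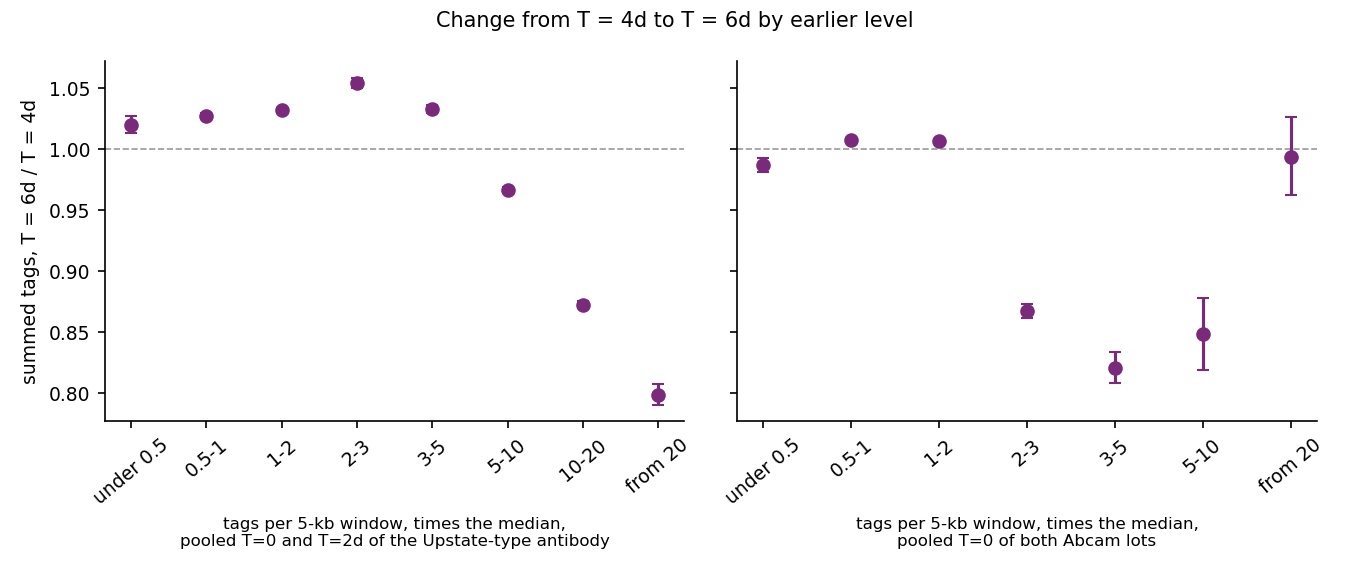
Summed tags at *T* = 6d divided by those at *T* = 4d (vertical axis), for 5-kb windows grouped by their earlier level in multiples of the median (horizontal axis), on the left by the Upstate-type antibody at *T* = 0 and *T* = 2d and on the right by both Abcam lots at *T* = 0. Points are ratios and bars are 95% exact binomial intervals; the ratio drops to 0.799 in the highest Upstate-type group and lies between 0.821 and 0.867 in Abcam groups from 2 to 10 times the median.

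Grouped by the *T* = 0 tags of both Abcam lots instead, with a pooled median of 42, the ratio was 1.01 in windows at 1 to 2 times the median. It was 0.867 (0.862 to 0.873) in the 9156 windows at 2 to 3 times, 0.821 (0.808 to 0.834) in the 869 windows at 3 to 5 times and 0.848 (0.819 to 0.878) in the 89 windows at 5 to 10 times. The 21 windows at 20 or more times the median stood apart, with 7632 tags at *T* = 4d and 7585 at *T* = 6d, a ratio of 0.994 (0.963 to 1.03).

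The windows at 3 or more times the Abcam median, 992 in all, are called enriched below, and no library of the Upstate-type antibody took part in choosing them. Their summed tags were 79302, 70749, 51948 and 44228 at *T* = 0, 2d, 4d and 6d. The last step lowered them by a ratio of 0.851 (0.841 to 0.862), beside 0.892 (0.883 to 0.901) for the first step and 0.734 (0.726 to 0.743) for the second. Of the fall from *T* = 0 to *T* = 6d, 24.4% came in the first step, 53.6% in the second and 22.0% in the third. Between *T* = 4d and *T* = 6d, 80 enriched windows (8.06%, 95% Clopper-Pearson interval 6.45 to 9.94%) were called lower and 11 (1.11%, 0.555 to 1.98%) higher, against 0.279% by counting error. All 992 were compared, whatever their tags. The Clopper-Pearson intervals take windows as independent, whereas windows near a called one tended to change with it, as given below. With the minimum of 40 summed tags 572 remained, of which 68 (11.9%) were lower and 10 (1.75%) higher, against 3.54% and 4.21% of all tested windows. In the first step 226 (22.8%) were lower and 42 (4.23%) higher, and in the second 301 (30.3%) were lower and 4 (0.403%) higher. Neighbouring steps share a library, so these counts stand side by side and are not independent. Without regard to the test, 679 enriched windows (68.4%) held fewer tags at *T* = 6d than at *T* = 4d and 270 held more. The number of enriched windows at or under the median of all windows grew from 184 (18.5%) at *T* = 4d to 252 (25.4%) at *T* = 6d. The last step was thus the one with the fewest calls, and most of these were losses. The median enriched window held 28 and 23 tags in this step, against 60 and 46 in the first, which limits the calls. By the summed ratio the last step lowered the tags more than the first.

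Enriched windows were then divided by libraries outside the comparison. With lot 58206, 3.71% of all windows tested were lower at *T* = 6d than at *T* = 0 and 5.14% higher, and with lot 638466 2.54% were lower and 1.02% higher. Both lots called 436 enriched windows lower. In these windows the mean number of tags of the Upstate-type antibody was 94.7, 65.9, 36.7 and 29.6 at *T* = 0, 2d, 4d and 6d. Their ratio in the last step was 0.806 (0.787 to 0.825), and 37 of them (8.49%) were lower and 5 higher. The last step brought 10.9% of their whole fall, after 44.1% and 45.0% in the steps before. In the 388 windows that neither lot called lower, the means were 70.7, 83.9, 74.5 and 66.1 in the same order. Here the last step had a ratio of 0.887 (0.872 to 0.902), with 32 windows lower (8.25%) and 6 higher, and left them close to the level of *T* = 0. In the 168 windows that a single lot called lower, the ratio was 0.809 (0.781 to 0.838), with 11 windows lower and 0 higher, where the Clopper-Pearson interval reaches 2.17%. The share of windows called lower in the last step was thus close in both of the larger sets. The intervals of their summed ratios did not overlap. These intervals cover counting error only, and tested windows differed by more (mean chi-square 2.41), so they cannot separate the sets. The ratio of the windows called by neither lot depended on the choice of windows. It was 0.855 without windows above 20 times the median, 0.9499 with 10-kb windows and 0.985 (0.958 to 1.01) with enrichment of 5 times, where the interval includes 1.

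**Figure D2:**
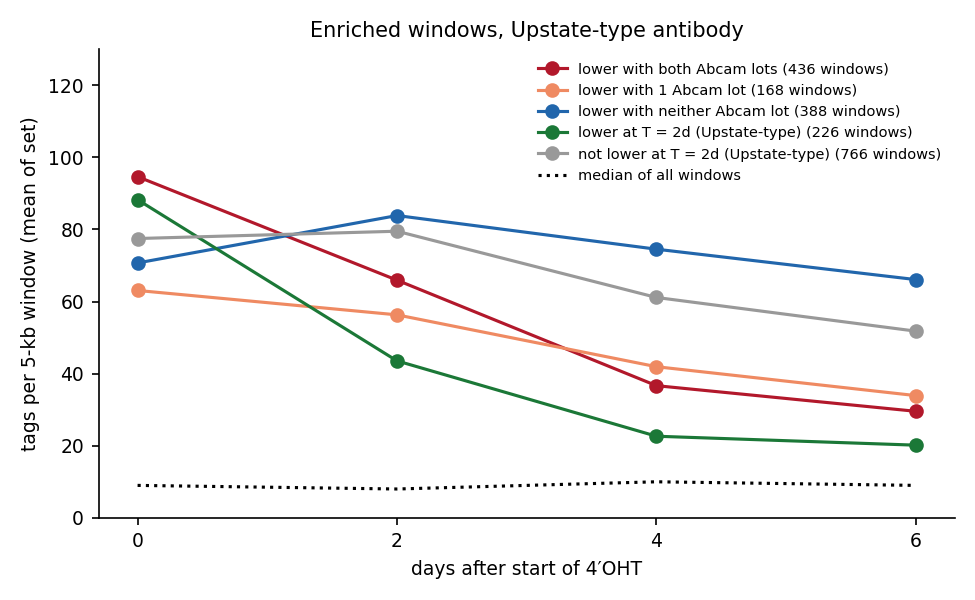
Mean number of tags of the Upstate-type antibody per 5-kb window (vertical axis) by days after the start of 4′OHT (horizontal axis), 1 library per time point, for sets of enriched windows chosen on other libraries or on the step to *T* = 2d, with the median of all windows dotted. Windows lower at *T* = 2d go from 22.6 to 20.2 tags in the last step, windows lower with both Abcam lots from 36.7 to 29.6, and windows lower with neither from 74.5 to 66.1.

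The enriched windows that had been lower by *T* = 2d were at a low level when the last step began. These 226 windows were chosen on *T* = 0 and *T* = 2d, and held means of 88.3, 43.5, 22.6 and 20.2 tags over the time course. From *T* = 4d to *T* = 6d their ratio was 0.890 (0.855 to 0.927), and 5 windows (2.21%, 0.722 to 5.09%) were lower and 5 higher. The shares of all tested windows were 3.54% and 4.21%, but with a minimum of 40 summed tags that was not set for these 226, so the shares are not alike. Their median of 13.5 tags at *T* = 4d limits what could be called, and their sum was still lower at *T* = 6d. Of these windows, 81 (35.8%) were at or under the median of all windows at *T* = 4d and 100 (44.2%) at *T* = 6d. In the 766 windows not lower by *T* = 2d, the ratio was 0.847 (0.836 to 0.859), with 75 windows lower (9.79%, 7.78 to 12.1%) and 6 higher (0.783%). The order of these ratios turned with 10-kb windows, where they were 0.873 for windows lower by *T* = 2d and 0.882 for the others. The 42 windows that had been higher at *T* = 2d had means of 70.8, 121, 90.8 and 67.0 tags. Of these, 13 (31.0%, 17.6 to 47.1%) were lower in the last step and 0 were higher (up to 8.41% by the same interval), with a ratio of 0.737 (0.702 to 0.774). Their mean at *T* = 0 is lowered by the choice, so it gives no measure of a return to the untreated level. Lot 58206 called 189 enriched windows higher over the 6 days. With the Upstate-type antibody their ratio in the last step was 0.811 (0.788 to 0.835), with 21 lower and 3 higher.

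To ask whether windows that had lost the mark by *T* = 4d lost more, stayed or regained it, the *T* = 4d tags were separated by even and odd midpoint position. The even tags chose the windows that were lower than at *T* = 0, and the odd tags were compared with *T* = 6d, since a window chosen for few tags would otherwise seem to rise. The split removes shared counting error only. Both sets of tags come from 1 library, so a low count particular to that library is present in both and could still seem to rise. Of all windows tested, 5.85% were lower and 3.4% higher at *T* = 4d by the even tags. Among the enriched windows 421 were lower. With the odd tags as the start, 25 of these (5.94%, Clopper-Pearson 3.88 to 8.64%) were lower at *T* = 6d, 3 (0.713%, 0.147 to 2.07%) were higher and 393 (93.3%) passed in neither direction. The shares over all windows with at least 40 summed tags, a minimum not set for the 421, were 3.16% lower and 3.08% higher, and counting error alone would call 0.445%. The mean of the 421 windows was 93.4, 61.0, 30.4 and 25.2 tags in the order of time (that of *T* = 4d from the odd tags, scaled to the whole library), with a ratio of 0.828 (0.803 to 0.854) in the last step. The value at *T* = 0 is raised by the choice, since that library took part in it. At *T* = 6d, 159 of them (37.8%) were at or under the median of all windows. The other 571 enriched windows had a ratio of 0.859 (0.844 to 0.874), with 36 lower and 6 higher, and means of 68.6 at *T* = 4d and 58.9 at *T* = 6d. Most windows that had lost the mark therefore showed no further change that the test could call, while their sum was still lower at *T* = 6d. The average window held 15.2 odd tags, and this depth limits what can be called in a single window.

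The 25 windows that were lower again are described without a test, since the comparison chose them. The smallest *P* belonged to a window of chromosome 1 at 53005001 to 53010000, with 145, 139, 85 and 21 tags at *T* = 0, 2d, 4d and 6d. A window 15 kb before it on chromosome 1, from 52990001 to 52995000, was also called and held 126, 120, 53 and 17 tags. Both held nearly as many tags at *T* = 2d as at *T* = 0, and fewer at the later time points. On chromosome 9 the window from 110870001 to 110875000 held 126, 108, 52 and 14 tags, and on chromosome 7 the window from 152045001 to 152050000 held 50, 63, 26 and 7. On chromosome 16, the neighbouring windows from 22390001 to 22395000 and from 22395001 to 22400000 held 185, 136, 108 and 55 tags and 199, 132, 120 and 72 tags. Those remained well above the median of 9 tags at *T* = 6d, whereas windows such as that of chromosome 13 from 51130001 to 51135000, with 76, 51, 13 and 3 tags, went below it.

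The 3 windows that were higher at *T* = 6d were chosen after their values were seen. The window of chromosome 14 from 68735001 to 68740000 held 55, 29, 15 and 44 tags at *T* = 0, 2d, 4d and 6d. At the same place lot 58206 went from 71 tags at *T* = 0 to 25 at *T* = 6d and lot 638466 from 75 to 33, so that only the Upstate-type antibody ended near its untreated level. The window of chromosome 4 from 155540001 to 155545000 held 164, 109, 72 and 115 tags, and the Abcam lots again ended lower, with 93 and 13 tags for lot 58206 and 88 and 26 for lot 638466. The third was the window of chromosome 17 from 39980001 to 39985000, at the copy of a ribosomal RNA unit. It held 865, 382, 80 and 130 tags at *T* = 0, 2d, 4d and 6d, and was still far below its untreated level. None of the 3 passed with the Benjamini-Hochberg adjusted *P* in place of the unadjusted one, by which 0 of the 421 windows were higher.

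The 5 enriched windows with the smallest Fisher *P* at *T* = 2d against *T* = 0 show where an early loss stood at the end. The chromosome 17 window was the first of them, and compared with all *T* = 4d tags its ratio was 1.63 (1.22 to 2.17, Fisher's exact test, *P* = 0.000685). The window of chromosome 6 from 124900001 to 124905000 held 116, 35, 20 and 10 tags, with *P* = 0.0987 by Fisher's exact test for the last step. On chromosome 16 the window from 22405001 to 22410000 held 230, 109, 65 and 42 tags (Fisher's exact test, *P* = 0.0329). The window of chromosome 10 from 79200001 to 79205000 held 96, 25, 21 and 25 tags (*P* = 0.659 by the same exact test), and that of chromosome 9 from 121225001 to 121230000 held 107, 31, 23 and 17 (*P* = 0.430, exact). Apart from chromosome 17, none passed the requirement in the last step when all *T* = 4d tags were compared. With its 38 odd tags as the start, the chromosome 16 window was called lower (Fisher's exact test, *P* = 0.00888). It is thus among the windows lower again above, and its call depended on the tags used.

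The loci the study displayed differed in the last step, with box limits known to the nearest kb. The box between *Olfr147* and *Olfr901*, genes of odorant receptors, covers 20 kb of chromosome 9 from 38216001 to 38236000. It went from 44 tags at *T* = 4d to 17 at *T* = 6d, after 181 at *T* = 0 and 124 at *T* = 2d, and the ratio of the last step was 0.386 (0.207 to 0.690, Fisher's exact test, *P* = 7.30e-04). Within the box, the last 5 kb, from 38231001 to 38236000, passed, since its 20 tags of *T* = 4d became 3 (*P* = 4.88e-04 by Fisher's exact test). The other 3 stretches of 5 kb did not pass, with 6, 9 and 9 tags at *T* = 4d and 7, 5 and 2 at *T* = 6d. At 0.85 tags per kb, the whole box at *T* = 6d lay below the median of 1.8 tags per kb over all windows.

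The box beside *H19*, an imprinted gene that yields a long non-coding RNA, covers chromosome 7 from 149764001 to 149770000. It held 53, 27, 18 and 13 tags in the order of time, and its last step had a ratio of 0.722 with an interval of 0.325 to 1.56 (Fisher's exact test, *P* = 0.473), so neither a further loss of 2-fold nor its absence can be read from it. The box at *Cdh3*, which encodes P-cadherin, spans 69 kb of chromosome 8 from 108962001 to 109031000. It held 247, 133, 78 and 76 tags, with a ratio of 0.974 (0.701 to 1.35, Fisher's exact test, *P* = 0.936) in the last step. At *T* = 4d it was already at 1.13 tags per kb, below the median over all windows of 2 tags per kb. The stretch from 109007001 to 109017000 held 0 tags of this antibody at every time point, which lowers the density of the box. The control region on chromosome 4 from 3015001 to 3020000 held 90, 88, 68 and 62 tags (ratio 0.912, 0.636 to 1.31, Fisher's exact test, *P* = 0.661). At these 4 places the last step thus passed the requirement only in the *Olfr901* box.

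Windows past the adjusted *P* and the fold were joined where they touched, and the 10 lower and the 10 higher regions with the smallest *P* are described here. The comparison chose them, and no test supports them. None of the 20 held an enriched window of the Abcam lots. The lower region with the smallest *P* was a single window of chromosome 9 from 118310001 to 118315000, with 111, 108, 91 and 8 tags at *T* = 0, 2d, 4d and 6d. Lot 58206 held 50 tags there at *T* = 0 and 36 at *T* = 6d, and lot 638466 held 69 and 43. The window was thus well above the median of its library at *T* = 4d and near the median of 9 tags at *T* = 6d.

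Other lower regions were longer. Chromosome 11 from 9020001 to 9035000 held 417, 564, 439 and 112 tags, and chromosome 8 from 37630001 to 37675000, over 45 kb, held 1002, 1395, 849 and 261. Chromosome 13 had a pair of them, from 6580001 to 6605000 with 462, 607, 507 and 168 tags and from 6610001 to 6645000 with 493, 722, 533 and 150. In 9 of the 10 regions the number of tags was higher at *T* = 2d than at *T* = 0. This was not particular to them. From *T* = 0 to *T* = 2d the mean went from 105 to 127 tags in windows at 10 to 20 times the Upstate-type median. Windows called in neither direction had medians of 37 and 41 tags. Weak windows went the other way, with means of 22.1 and 21.0 tags at 2 to 3 times the median. On chromosome 1 the region from 8930001 to 8945000 held 181, 359, 236 and 55 tags. On chromosome 5 the window from 104865001 to 104870000 held 173, 215, 134 and 38 tags, and on chromosome 14 that from 77935001 to 77940000 held 34, 54, 55 and 4. This last window and a pair of other regions had their highest level at *T* = 4d. Chromosome 16 from 12775001 to 12810000 held 153, 291, 696 and 249 tags and ended above *T* = 0, while chromosome 14 from 50440001 to 50460000 held 87, 138, 243 and 42 tags and ended below it. The Abcam lots held 204 and 128 tags (lot 58206) and 244 and 230 tags (lot 638466) at *T* = 0 and *T* = 6d in the region of chromosome 16.

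**Figure D3:**
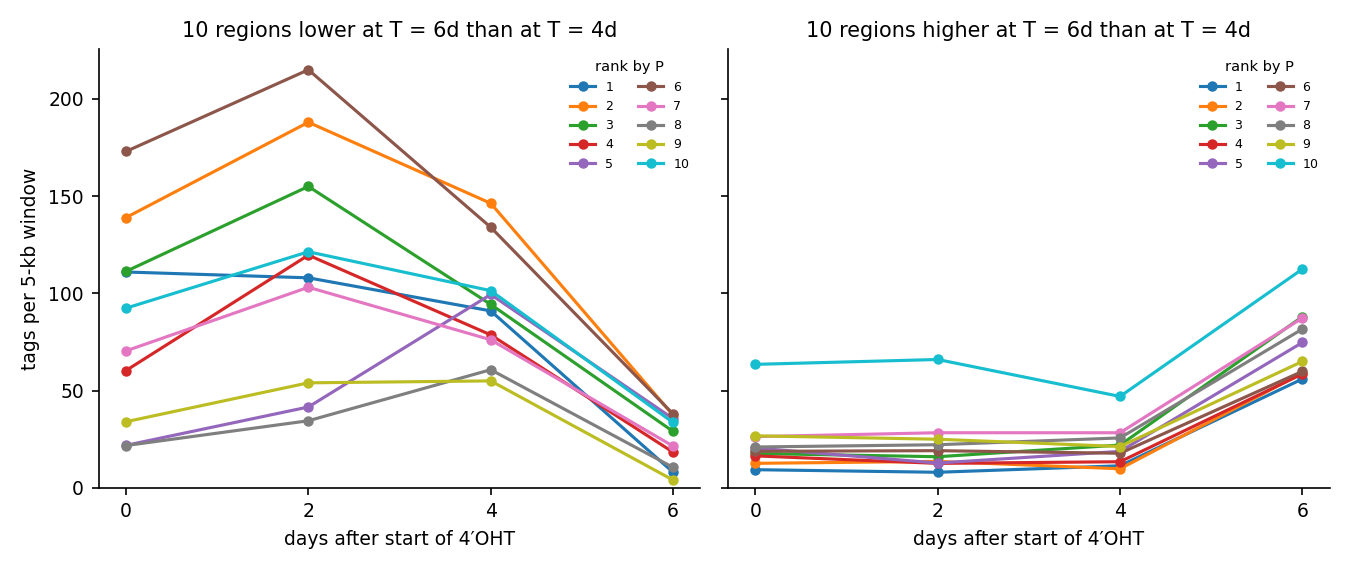
Tags of the Upstate-type antibody per 5-kb window (vertical axis) by days after the start of 4′OHT (horizontal axis), 1 library per time point, in the 10 regions with the smallest *P* among those lower (left) and higher (right) at *T* = 6d than at *T* = 4d. The comparison of *T* = 4d with *T* = 6d chose the regions. The higher regions have their highest level at *T* = 6d, and most lower regions have their highest level at *T* = 2d.

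Up to *T* = 4d the higher regions differed in level. The first, on chromosome 3 from 107545001 to 107560000, held 28, 24, 34 and 168 tags at *T* = 0, 2d, 4d and 6d. Chromosome 11 from 108785001 to 108810000 held 63, 68, 49 and 295 tags, the largest ratio of the 10 at 6.02 (4.44 to 8.32). Chromosome 2 from 117940001 to 117955000 held 53, 48, 66 and 264 tags and chromosome 13 from 38255001 to 38290000 held 115, 88, 94 and 410. The other 6 higher regions, on chromosomes 2, 6, 10, 14 and 19, had ratios of 2.39 to 3.99. The region of chromosome 14, from 8710001 to 8720000, was well above the median window throughout, with 127, 132, 94 and 225 tags over 10 kb. The Abcam lots differed between regions from *T* = 0 to *T* = 6d. At the region of chromosome 3 lot 58206 held 61 and 75 tags and lot 638466 held 117 and 87, and at that of chromosome 11 they held 79 and 109 tags and 143 and 134 tags. On chromosome 19 from 9065001 to 9095000, lot 58206 went from 108 to 156 tags and lot 638466 from 215 to 196, and at the region of chromosome 14 the lots went from 31 to 38 and from 54 to 60.

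Over all windows called by the unadjusted *P*, the medians of the lower windows were 55, 71, 66 and 31 tags at *T* = 0, 2d, 4d and 6d. The higher windows had medians of 23, 23, 20 and 48, and the windows called in neither direction 37, 41, 37 and 39. Of the lower windows 1836 (87.7%) were at 3 or more times the median of the Upstate-type antibody at *T* = 0 and *T* = 2d, against 1028 (41.3%) of the higher and 70.1% of the others. Of the lower windows 68 (3.25%) were among the enriched windows of the Abcam lots, and of the higher windows 10 (0.402%). The Abcam libraries, which the calls did not use, give a separate reading of these windows between *T* = 0 and *T* = 6d. With lot 58206 the summed ratio was 0.851 in the lower windows, 0.947 in the higher windows and 0.941 in the others, and with lot 638466 it was 0.824, 0.889 and 0.887. The lower windows thus had the lowest summed ratio with both lots, and the higher windows were within 0.01 of the uncalled ones with both. Other measures set the higher windows apart more. The median of lot 58206 went from 19 to 17 tags in the higher windows and from 19 to 15 in the uncalled ones, and that of lot 638466 from 32 to 29 and from 31 to 27. Uncalled windows 5 kb from a higher one had ratios of 1.07 with lot 58206 and 0.889 with lot 638466. Beside lower ones these were 0.892 and 0.811.

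Most called windows stood alone, and some made long regions. The 1291 lower windows made 939 regions, of which 763 were single windows and 40 were 20 kb or longer, and the 1398 higher windows made 1020 regions, with 829 single windows and 40 of that length. A neighbour called in the same direction was present for 40.9% of the lower and 40.7% of the higher windows. The longest lower region, 65 kb of chromosome 10 from 62280001 to 62345000, held 1581, 1878, 1354 and 601 tags over the time course. The longest higher region, 60 kb also on chromosome 10 from 12415001 to 12475000, held 268, 281, 313 and 837. Windows next to a lower one that were not called themselves had a ratio of 0.751 (0.744 to 0.759) at 5 kb, 0.790 at 25 kb, 0.855 at 50 kb, 0.918 at 100 kb and 0.980 at 500 kb. Next to higher windows the ratios were 1.43 (1.42 to 1.45), 1.30, 1.18, 1.06 and 1.02. At 250 kb they were 0.935 near lower and 1.01 near higher windows, and the intervals did not include 1 at any of these distances.

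**Figure D4:**
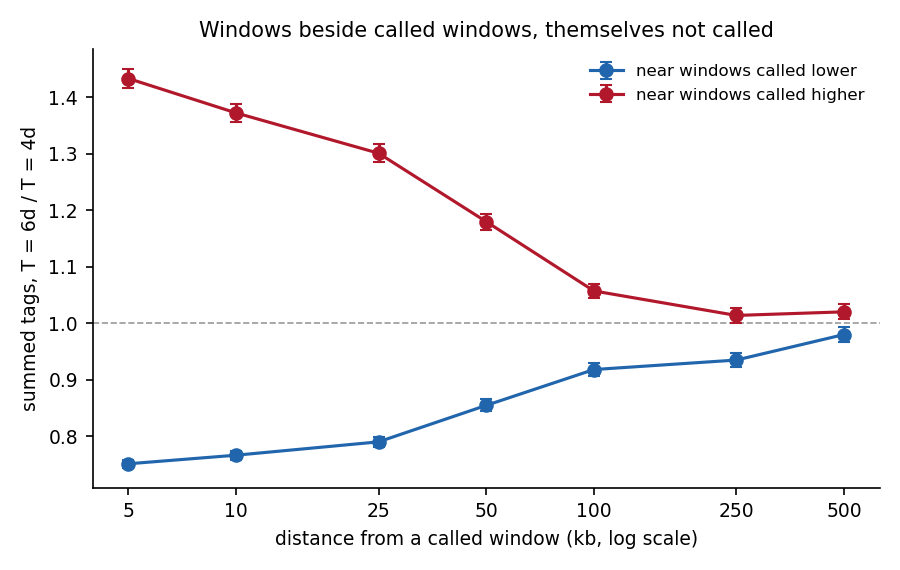
Summed tags at *T* = 6d divided by those at *T* = 4d (vertical axis) in windows that were not called, by their distance from a called window (horizontal axis, log scale), for windows near lower (blue) and higher (red) calls. Bars are 95% exact binomial intervals; the ratio is 0.751 and 1.43 at 5 kb and comes to 0.980 and 1.02 at 500 kb.

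The same was seen at a larger scale. In 2384 windows of 1 Mb, the log2 ratio of *T* = 6d to *T* = 4d had an SD of 0.15, against 0.041 for counting error, beside 0.11 for the first step and 0.19 for the second. The 5th and 95th percentiles of the log2 ratio in the last step were -0.25 and 0.24. The lowest was chromosome 11 from 27000001 to 28000000, with 1946 tags at *T* = 4d and 1322 at *T* = 6d (ratio 0.679, 0.633 to 0.729). The next were chromosome 1 from 8000001 to 9000000 (0.692) and chromosome 13 from 6000001 to 7000000 (0.699), which hold 1 and 2 of the lower regions named above. The highest was chromosome 16 from 24000001 to 25000000, with 2758 and 4203 tags (1.52, 1.45 to 1.60). A ratio of 1.45 was seen on chromosome 10 from 12000001 to 13000000, which holds the longest higher region, and on chromosome 14 from 8000001 to 9000000. Whole chromosomes differed little, from a ratio of 0.974 (0.969 to 0.979) for chromosome 13 to 1.02 for chromosome 12. The share of tested windows called lower was 5.75% on chromosome 19 and 2.10% on chromosome 5, and the share called higher was 2.78% and 4.10% on the same chromosomes.

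**Figure D5:**
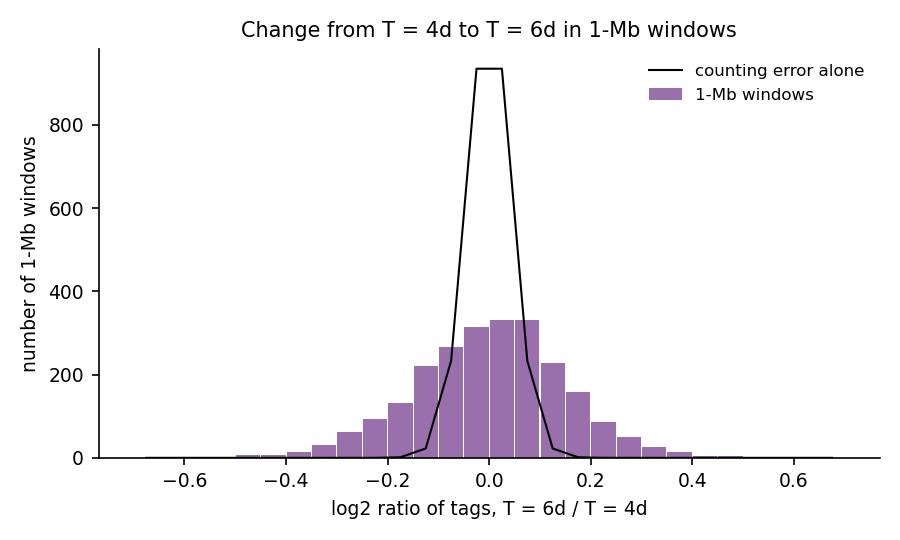
Number of 1-Mb windows (vertical axis) by the log2 ratio of tags at *T* = 6d to *T* = 4d (horizontal axis), in bins of 0.05, with the number that counting error alone would give as a black line. The SD of the windows is 0.15, against 0.041 for counting error.

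Sequence that cannot be mapped uniquely, such as that of young repeats, leaves stretches without a tag, beside which only the flanks can be read. Stretches without a tag midpoint in any of the 8 libraries were used, and which repeats they hold was not analysed here. Beside 6241 stretches of 4 to 9 kb, the flanks of 1 kb held 2.30, 1.86, 1.45 and 1.35 tags per kb at *T* = 0, 2d, 4d and 6d. The last step had a ratio of 0.931 (0.912 to 0.951), after 0.806 and 0.783 in the steps before. Beside 16496 stretches of 1.5 to 4 kb the ratio of the last step was 0.984 (0.968 to 0.9998), after 0.852 and 0.864. At 5 to 10 kb from the stretches, the ratios of the last step were 0.983 and 0.981. For the shorter stretches the last step had lower ratios further out, with 0.954 at 1 to 2 kb and 0.969 at 2 to 5 kb, so it shows no loss particular to their flanks. The ratio of the flanks was closer to 1 in the last step than in either step before it.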

How the data were processed

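ChIP was carried out by the authors on 8 samples of a single ES cell line, and tags were mapped uniquely, brought to 1 number of tags per antibody, extended and deposited as intervals without values. Each of the deposited intervals is 300 bp long, no start position is repeated within a library, and the files hold 6887819 (Upstate-type antibody), 8503927 (lot 58206) or 12194174 tags (lot 638466). How tags were picked to equal numbers and the aligner are not given in the sources used here, and the build was taken as mm9. Gene annotation and sequence of mm9 were not used here, and regions carry their positions only. Tables of the whole series were not used.

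Samples were grouped by time point and antibody from their titles. Midpoints of tags were counted in Python (3.11.15) with the packages scipy (1.17.1), pandas (2.3.3) and numpy (2.4.6), and plots were made with matplotlib (3.10.9). Windows with at least 40 summed tags were compared by Fisher's exact test (two-sided), at the limits used in the study (*P* below 0.01, over 1.5-fold). Ratios are given with exact binomial intervals at 95%, which cover counting error only. Clopper-Pearson intervals of shares take windows as independent, although nearby windows tended to change together, so they are too narrow. On simulated data for the comparison of *T* = 6d with *T* = 4d over 59104 windows, a planted 3-fold change was recovered with its sign in 96% of windows and a 2-fold change in 61%, and for the 992 enriched windows 72.5% and 41%. The simulated tags held counting error only, whereas the chi-square of the tested windows averaged 2.41. These shares therefore do not cover other differences between libraries. A split of the *T* = 4d tags by alternate lines had been planned, but the files are sorted by position, so that both sets would differ by at most 1 tag in a window, and midpoint parity was used. Named regions were the 10 lower and 10 higher with the smallest *P*, the 5 windows with the smallest *P* at *T* = 2d, and the loci the study displayed. The libraries, window sets and lists were chosen with earlier results of these data known. Alternatives were other window sizes, limits, scalings, choices of windows and splits.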

Additional observations from a re-analysis of the deposited data

How the results depend on the processing

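Of the values recomputed under an alternative, 83 of 130 stayed within the interval or 1.5 times the count reported, 47 moved beyond it and 0 crossed from lower to higher or the reverse, but 2 orders turned: which direction had more calls, and which of the windows lower and not lower at *T* = 2d had the lower ratio (0.873 and 0.882 with 10 kb, 0.893 and 0.916 with enrichment of 5 times). The cause of these moves was not tested. Lower and higher windows were 1507 and 752 with 2-kb windows, 3065 and 3986 with at least 20 summed tags, 1296 and 962 with at least 80, 1291 and 1398 with the adjusted *P*, 1102 and 1861 over 2-fold, and 1165 and 1161 in 50-kb windows (chosen after seeing the data). The share of enriched windows lower and higher was 1.79% and 0.352% with 2 kb, 3.83% and 0.403% over 2-fold, and 4.41% and 2.29% with windows chosen on *T* = 0 and *T* = 2d of the Upstate-type antibody. The share lower was 14.2% with 10 kb and 3.27% with enrichment of 2 times, and the share higher was 3.25% with enrichment of 5 times. The ratio of all enriched windows was 0.881 with 10 kb, 0.830 without windows above 20 times the median, 0.864 and 0.913 with enrichment of 2 and 5 times, and 0.949 with the Upstate-type choice. That of windows not lower at *T* = 2d was 0.882, 0.821, 0.863 and 0.916 under the first 4 of these, and 0.859 with windows chosen on *T* = 0 and *T* = 6d of the Abcam lots. For windows lower with neither lot it was 0.9499 with 10 kb, 0.855 without the windows above 20 times, 0.985 (0.958 to 1.01) with enrichment of 5 times and 0.871 with the latter choice. For windows lower at *T* = 2d it was 0.855 with 2 kb. Windows lost by *T* = 4d were lower and higher in 1.57% and 0.157% with 2 kb, 13.0% and 1.63% with 10 kb, 3.09% and 0% with the adjusted *P*, 3.42% and 0.448% with enrichment of 2 times, 13.3% and 1.67% with 5 times, and 11.1% and 1.11% with the *T* = 0 and *T* = 6d choice. Higher were 0.238% over 2-fold and 1.09% where all *T* = 4d tags chose and were compared. The displayed loci were recomputed only with scaling to background windows, and the flanks only with this scaling and with a flank of 2 kb. Under these, the ratio at each displayed locus and at the flanks kept its side of the requirement or its interval. The windows hold few tags, which limits what a single window can show.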
